A study of Mus musculus with 10 samples.

Results

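Transcripts of a set of genes named for ON bipolar cell signalling in the mouse retina were measured here against newborn cortex. The set was defined by a list of 10 gene symbols (Grm6, Trpm1, Nyx, Gpr179, Pcp2, Prkca, Scgn, Lrtm1, Gng13 and Rgs11), and its members were the array probes whose single symbol in the platform annotation was on that list. 6 genes, with 1 probe each, were found among the 33012 probes of the array, of which 14411 had 1 symbol. Trpm1, Gpr179, Prkca and Rgs11, the other 4, had no probe under that rule and were not analysed here.

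The series hybridised 2 pooled mouse RNAs to single-channel Applied Biosystems arrays, 5 arrays each, as part of a comparison of array platforms. The retina RNA came from a pool of 350 adult C57/B6 mice of unstated age in days. The cortex RNA, the reference of the study, came from a pool of 19 mice at postnatal day 1, which the sample descriptions call C57/B6 and the series text Swiss-Webster. No transgene, drug or other treatment is named for either pool. Every array of a tissue repeated the same pool, so the p-values below measure the spread between arrays and not between animals, and tissue cannot be told apart from age or, possibly, strain. In whole-tissue RNA, fewer cells of a type and less RNA per cell cannot be told apart either.

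Bipolar cells carry signals from photoreceptors to the inner retina. Photoreceptors release glutamate in the dark, and ON bipolar cells answer it with a metabotropic receptor, mGluR6, whose G protein keeps the cation channel TRPM1 closed, so that light, by lowering glutamate, opens the channel. The receptor is encoded by Grm6. Nyx encodes nyctalopin, a leucine-rich repeat protein of the dendritic tips, where it is needed for the channel to reach its place, and loss of either gene causes congenital stationary night blindness. Gng13 encodes a G protein gamma subunit used by ON bipolar cells and also by taste and olfactory cells, and Pcp2 encodes a GoLoco protein that binds the G protein alpha subunits, known from ON bipolar cells and cerebellar Purkinje cells. Scgn encodes secretagogin, a calcium-binding protein of cone bipolar cells of ON and OFF types, and Lrtm1 a leucine-rich repeat transmembrane protein.

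Promoter windows of the members each cover 250 bases before and 50 after an annotated start. They are shown because the 6 measured members were all higher in the same tissue. They were taken from RefSeq annotation on GRCm38.p6, and each is printed 5′ to 3′ on the strand of its gene. The members printed are Grm6, the receptor gene of the cascade, Lrtm1, the measured member whose window held TAATCC, and Pcp2, at the start whose window held TAATTA. Capitals mark matches, on either strand, to TAATCC (a core site of the photoreceptor and bipolar factors CRX and OTX2), TAATTA (a homeodomain palindrome) or CANNTG (the E-box).
Grm6 (chr11:50850435-50850734, plus strand): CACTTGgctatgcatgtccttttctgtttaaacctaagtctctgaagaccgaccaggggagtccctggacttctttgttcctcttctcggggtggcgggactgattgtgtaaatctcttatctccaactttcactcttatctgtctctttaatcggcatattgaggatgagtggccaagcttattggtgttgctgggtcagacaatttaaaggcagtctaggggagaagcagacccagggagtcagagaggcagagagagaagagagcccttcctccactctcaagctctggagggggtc
Lrtm1 (chr14:29017958-29018257, plus strand): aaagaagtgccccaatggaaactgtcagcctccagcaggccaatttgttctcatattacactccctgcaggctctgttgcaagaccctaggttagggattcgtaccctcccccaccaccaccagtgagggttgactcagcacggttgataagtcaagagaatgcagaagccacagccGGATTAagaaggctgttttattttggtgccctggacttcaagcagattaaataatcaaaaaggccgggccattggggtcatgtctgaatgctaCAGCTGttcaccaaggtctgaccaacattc
Pcp2 (chr8:3625233-3625532, minus strand): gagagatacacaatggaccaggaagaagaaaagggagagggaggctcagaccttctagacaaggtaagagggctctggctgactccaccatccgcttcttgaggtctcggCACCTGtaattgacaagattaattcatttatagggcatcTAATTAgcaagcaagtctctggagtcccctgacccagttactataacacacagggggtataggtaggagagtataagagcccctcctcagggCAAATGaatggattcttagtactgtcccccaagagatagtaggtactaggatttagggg

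Windows were found for 9 of the 10 listed genes, all but Rgs11. There were 14 windows in all, since some genes have several annotated starts and their windows can overlap. Trpm1, Gpr179 and Prkca are among these genes but were not measured, so their windows are not of genes found higher in retina. TAATCC was in 2 of the 14 windows, against 7.06% of the 32851 windows of the whole annotation. In Lrtm1 it lay on the opposite strand, starting 73 bases before the start, and the other window was of Trpm1. TAATTA was in 1 of the 14 windows, against 5.29% of all, and the E-box in 13 of the 14, against 72.3% of all, so the E-box was common everywhere and Scgn was the listed gene whose window lacked it. In the Grm6 window the E-box was the first letters printed, and no match to TAATCC or TAATTA was found in those letters. A match is a string of letters and was not tested as a binding site.

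All 6 measured members were higher in retina than in cortex. The smallest difference was 10.8-fold, for Nyx, and the largest 184-fold, for Scgn. Among all 33012 probes, 12.1% were called higher in retina, where a call required a Benjamini-Hochberg adjusted p under 0.05 over all probes in limma and a difference of at least 2-fold. In all 6 members, the lowest retina array lay above the highest cortex array, which held for 19.2% of all probes. The list had a median difference of 6.28 log2 units, beside -0.01 for all probes. The values below are quantile-normalized log2 intensities, on which 1 unit is a doubling, and levels of different probes are not compared, since probes differ in how brightly they bind.

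**Figure D1:**
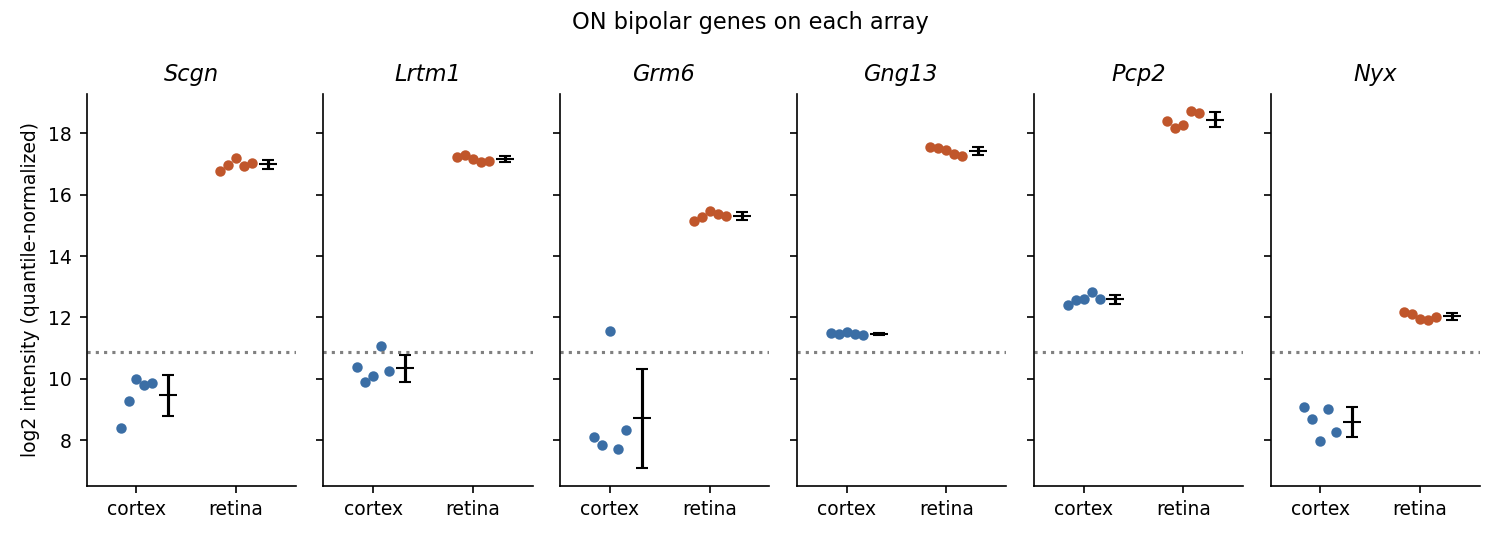
Quantile-normalized log2 intensity (vertical axis) of the 6 measured members on each of the 5 cortex arrays (blue) and 5 retina arrays (orange), with the mean and SD of each tissue in black and the 95th percentile of 747 olfactory receptor probes, 10.87, as a dotted line. The retina points sit tightly together above all cortex points in every panel, and in the Grm6 panel 1 cortex array lies at 11.57, apart from the other 4.

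Some cortex values were dim. No detection call was used here, so the 95th percentile of the 747 probes named for olfactory receptors, 10.87 log2 units, served as a yardstick for dim signal, and 58.2% of all probes had a cortex mean below it. The cortex mean lay below this level for Grm6, Nyx, Scgn and Lrtm1 and above it for Gng13 and Pcp2, whereas all 6 retina means lay above it. Where the cortex value is dim, the size of the fold depends on signal that was not shown to be above background, and each member difference of this kind is therefore also given with every value below 10.87 raised to 10.87. For other genes named below, that second value follows as "raised" where a tissue was dim and it differed by over 1.5-fold.

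The receptor gene Grm6 (probe 678570) was bright on all 5 retina arrays, at 15.14, 15.27, 15.46, 15.36 and 15.32 on arrays 1 to 5. Its cortex values were 8.11, 7.86, 11.57, 7.70 and 8.33. Cortex array 3 stood far above the other 4 cortex arrays, yet its value was 3.57 units below the lowest retina array. The tissue means were 15.31 ± 0.12 and 8.71 ± 1.62 (SD, n = 5 each), a difference of 6.60 with an SE of 0.52 and an adjusted p of 9.76e-09 by limma. This is 96.9-fold with a 95% interval of 44.7 to 210. That SE and interval draw on the spread of other probes as well as on that of Grm6. The limma adjusted p depended on this setting, at 1.49e-05 without the intensity trend and 4.09e-05 with robust eBayes. The cortex SD was larger than that of 99.7% of all probes, whereas the retina SD exceeded 20.1% of them. Without cortex array 3, the cortex mean was 7.97 ± 0.28 (SD, n = 4) and the difference 7.31 (SE 0.13, limma adjusted p = 3.19e-16), or 159-fold. With values raised to the dim level, the difference was 4.30 log2 units, or 19.7-fold.

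Nyx (probe 515413), the nyctalopin gene, had the smallest difference of the 6. Its retina values were 12.19, 12.11, 11.95, 11.92 and 12.01, and its cortex values 9.08, 8.69, 7.96, 9.03 and 8.27. The groups did not overlap, with 2.84 units between the lowest retina and the highest cortex array. The retina mean was 12.03 ± 0.11 and the cortex mean 8.61 ± 0.49 (SD, n = 5 each), a difference of 3.43 (SE 0.24, limma adjusted p = 1.45e-09), or 10.8-fold with a 95% interval of 7.61 to 15.2. All 5 cortex values were in the dim range, and with values raised to 10.87 the difference was 1.16 log2 units, or 2.24-fold.

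Gng13 (probe 921363), the G protein gamma subunit gene, gave the most repeatable cortex values. It was at 17.56, 17.51, 17.45, 17.33 and 17.28 on the retina arrays and at 11.48, 11.45, 11.52, 11.45 and 11.42 on the cortex arrays. All 5 cortex values lay above the dim level, and their SD of 0.04 was smaller than that of nearly all probes (it exceeded 1.83% of them). The means were 17.43 ± 0.12 and 11.46 ± 0.04 (SD, n = 5 each), a difference of 5.96 (SE 0.057, limma adjusted p = 4.44e-20), or 62.4-fold with a 95% interval of 57.4 to 67.9.

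Pcp2 (probe 550044), the GoLoco protein gene, was the other member whose cortex signal lay clearly above the dim level. The retina values were 18.42, 18.19, 18.27, 18.72 and 18.66, and the cortex values 12.40, 12.57, 12.59, 12.82 and 12.60. Retina arrays 4 and 5 were the highest of their group, and the groups were 5.37 units apart. The means were 18.45 ± 0.23 and 12.60 ± 0.15 (SD, n = 5 each), a difference of 5.85 (SE 0.096, limma adjusted p = 1.38e-17), or 57.9-fold with a 95% interval of 50.3 to 66.7. Because Pcp2 is also a Purkinje cell gene, 7 genes known from Purkinje cells were listed as well, and all 4 that were measured were higher in retina, among them Ppp1r17 (3.92, SE 0.26, raised 1.83) and Pvalb, the parvalbumin gene (3.59, SE 0.28, raised 2.60). Calb1 and Gad1, the other 2, are genes of retinal inner neurons too, and Gad1 was not called without normalization (0.94). The pools hold no cerebellum by their labels, and the share of other cells in the Pcp2 signal was not tested.

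Scgn (probe 586308), the secretagogin gene, had the largest difference of the 6. It was at 16.79, 16.96, 17.20, 16.94 and 17.05 on the retina arrays and at 8.39, 9.27, 9.98, 9.81 and 9.88 on the cortex arrays. Cortex array 1 was the lowest, and all 5 cortex values lay in the dim range, 6.81 units or more below the retina arrays. The means were 16.99 ± 0.15 and 9.47 ± 0.66 (SD, n = 5 each), a difference of 7.52 (SE 0.22, limma adjusted p = 2.21e-14), or 184-fold with a 95% interval of 132 to 256. With values raised to the dim level, the difference was 6.12, or 69.3-fold.

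Lrtm1 (probe 299322), the leucine-rich repeat transmembrane protein gene, was at 17.24, 17.30, 17.17, 17.08 and 17.09 on the retina arrays. Its cortex values were 10.38, 9.91, 10.10, 11.07 and 10.24, of which array 4 was the highest and alone lay above the dim level. The means were 17.18 ± 0.10 and 10.34 ± 0.44 (SD, n = 5 each), a difference of 6.84 (SE 0.15, limma adjusted p = 5.73e-16), or 114-fold with a 95% interval of 91.2 to 143. With values raised to the dim level, the difference was 6.26, or 76.8-fold, the largest of the 6 on that scale.

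**Figure D2:**
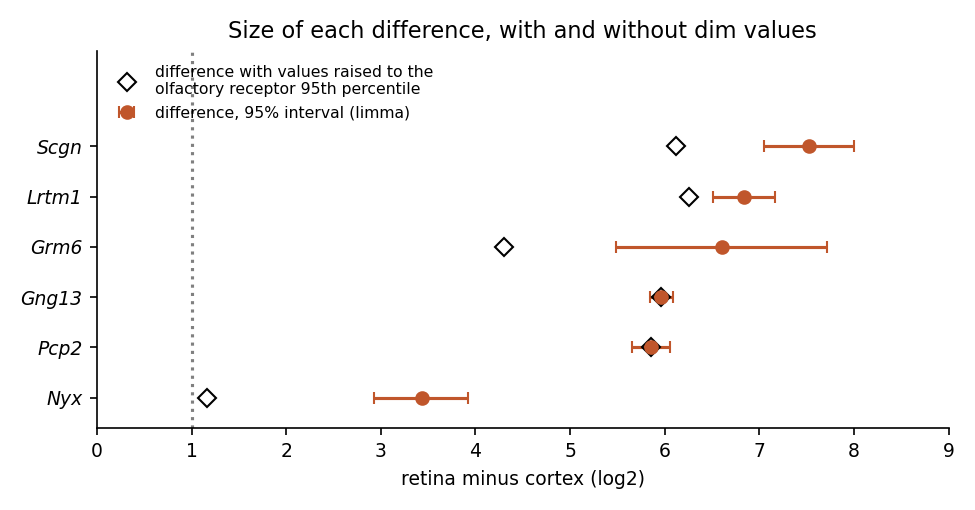
Retina minus cortex difference on the log2 scale (horizontal axis) for the 6 measured members, with 95% intervals from limma (orange) and, as open diamonds, the difference after every value below 10.87 was raised to that level. The dotted line marks the 2-fold minimum, and Grm6 and Nyx moved the most between the measures, to 4.30 and 1.16.

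An exact 2-sided permutation test over all assignments of arrays to tissues gave p = 0.00794 for each of the 6 members. This is the smallest p these assignments can give. It follows from the lack of overlap alone, so the 19.2% of all probes with retina above cortex get it too. By measured difference the order was Scgn, Lrtm1, Grm6, Gng13, Pcp2 and Nyx, but the dim cortex values of 4 of them do not fix it. With values raised to the dim level the order was Lrtm1 (6.26), Scgn (6.12), Gng13 (5.96), Pcp2 (5.85), Grm6 (4.30) and Nyx (1.16), so Grm6 then stood below both members with a brighter cortex signal. The 95% intervals of neighbours in the first order overlapped, except between Pcp2 and Nyx, and the differences between neighbours were not tested. On both scales, 5 of the 6, all but Nyx, differed by 4 log2 units or more, as 1.05% of all probes did before values were raised.

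**Figure D3:**
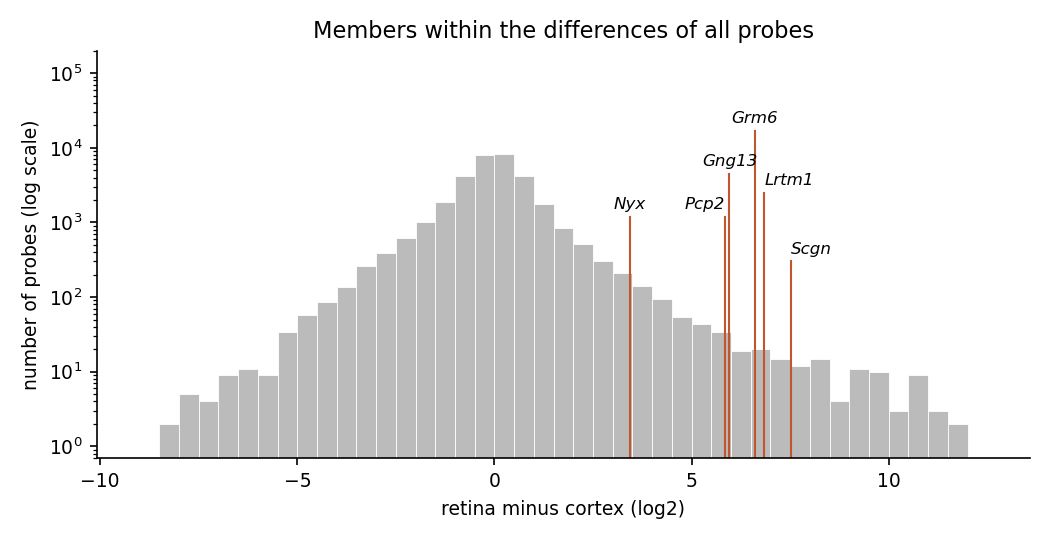
Number of probes (vertical axis, log scale) by retina minus cortex difference (horizontal axis, log2, bins of 0.5 units) over all 33012 probes, with the 6 members marked by orange lines whose height has no meaning. The members stand on the retina side, between 3.43 (Nyx) and 7.52 (Scgn), away from the median of all probes at -0.01.

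For each member, the named probe that moved most like it over the 10 arrays was sought, by the root mean square (RMS) distance between values centred on the middle of the tissue means. This measure mainly finds probes with a difference of the same size. Gng13 was nearest to Plekhb1 (RMS 0.11 log2 units) and to Egflam (0.14), which encodes pikachurin, a matrix protein of the photoreceptor synapse with bipolar cells. Pcp2 was nearest to Crygb (0.20) and Rpgrip1 (0.23), a ciliary gene of photoreceptors, and Lrtm1 to Glb1l2 (0.24) and Crx (0.26), the photoreceptor and bipolar homeobox gene. Nyx was nearest to Cryba4 (0.22), Scgn to Nxnl1 (0.33) and Grm6 to Impg2 (0.61), the last at a larger distance.

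Partners of the mGluR6 cascade were divided. Of 11 listed, 8 were measured, of which 4 came out higher in retina and 1 lower, and 3 missed the call. Their median difference was 1.11, and 0.00 with values raised to the dim level. The raised median fell on genes dim in both tissues (3 of the 8), for which raising leaves little or no difference by construction. Over all probes, 12.1% were higher and 13.3% lower. Egflam averaged 17.32 ± 0.09 on retina arrays and 11.38 ± 0.16 on cortex arrays (SD, n = 5 each), a difference of 5.94 (SE 0.072). Gnb5, the G protein beta subunit that pairs with RGS proteins of the cascade, was higher by 4.05 (SE 0.07). Elfn1, an adhesion protein gene of photoreceptor terminals that binds mGluR6, was higher by 2.18 (SE 0.086, limma adjusted p = 9.74e-13).

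The G protein subunits that act with Gng13 gave small or negative differences. Gnao1, the alpha subunit of the cascade, averaged 15.67 ± 0.12 on retina arrays and 16.16 ± 0.11 on cortex arrays (SD, n = 5 each), a difference of -0.49 (SE 0.065) that was under the 2-fold minimum. Gnao1 is also abundant in brain neurons. Gnb3, the beta subunit of ON bipolar cells and cones, was higher by 1.36 (SE 0.35, limma adjusted p = 0.00381), but it was dim in both tissues, its arrays overlapped, and without normalization (0.93) or with values raised to the dim level it was not called. Rgs7, the GTPase-activating protein that works beside Rgs11, was at -0.31 (SE 0.058), and Rgs9bp, the gene of a membrane anchor for RGS proteins of that family, dim in both tissues, was at 0.87 (SE 0.35). Rgs9bp was called without cortex array 4 or retina array 4 (1.05 in each case), but was at 0.00 with values raised to the dim level. Dag1, the dystroglycan gene, was lower by limma (-1.32, SE 0.34) from values that were dim in both tissues, and at -0.08 with values raised to the dim level.

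Transcription factor genes of bipolar cells were mostly higher. Of 14 listed, 11 were measured, of which 9 came out higher in retina and 1 lower, and 1 missed the call. Their median difference was 3.66. Bhlhe23, a factor of rod bipolar cells, averaged 14.68 ± 0.15 on retina arrays and 9.32 ± 0.84 on cortex arrays (SD, n = 5 each), a difference of 5.36 (SE 0.28, raised 3.81). Otx2, a homeobox gene of photoreceptors and bipolar cells, was higher by 5.20 (SE 0.081), Neurod4 by 7.56 (SE 0.25, raised 5.52) and Sebox by 6.53 (SE 0.15, raised 4.35). Vsx1, a homeobox gene of cone bipolar cells, was higher by 5.16 (SE 0.39), but by 1.42 with values raised to the dim level. The Iroquois genes Irx6 (3.66, raised 1.88) and Irx5 (2.12) were higher too. Isl1, a LIM homeobox gene of ON bipolar, amacrine and ganglion cells, was higher by 1.92 (SE 0.066), and Lhx3 was at 0.74, under the 2-fold minimum. Lhx4 was higher by 3.36 (SE 0.31), but with values raised to the dim level it was at 0.08 and not called. Fezf2, which is known from deep-layer cortical neurons as well as from bipolar cells, was lower in retina (-1.87, SE 0.08). For 7 of the 11 genes, the cortex mean was in the dim range, and with values raised the median of the list was 1.92.

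Other bipolar markers followed, including genes of OFF types. Of 12 listed, 10 were measured, of which 7 came out higher in retina and 2 lower, and 1 missed the call. Their median difference was 2.25, and 1.33 with values raised. Cabp5, a calcium-binding protein gene of rod bipolar and some cone bipolar cells, averaged 16.70 ± 0.07 on retina arrays and 8.58 ± 0.85 on cortex arrays (SD, n = 5 each), a difference of 8.11 (SE 0.28, raised 5.83). The GABA receptor rho subunit genes Gabrr2 and Gabrr1, used at bipolar terminals, were higher by 6.33 (raised 5.04) and 5.51 (raised 2.93). Tacr3, a neurokinin receptor gene of OFF bipolar cells, was higher by 3.23 (SE 0.17, raised 1.33), and Grik1, the kainate receptor gene of OFF bipolar cells, by 1.41 (SE 0.072). Prkar2b (-2.88, SE 0.098) and Neto1 (-2.96, SE 0.14, raised -1.88), which brain neurons also use, were lower in retina. Syt2 was called (1.21, SE 0.42) from values dim in both tissues, and was not called without normalization (0.75), with an offset (1.00), with values raised to the dim level, or without any of 5 single arrays.

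**Figure D4:**
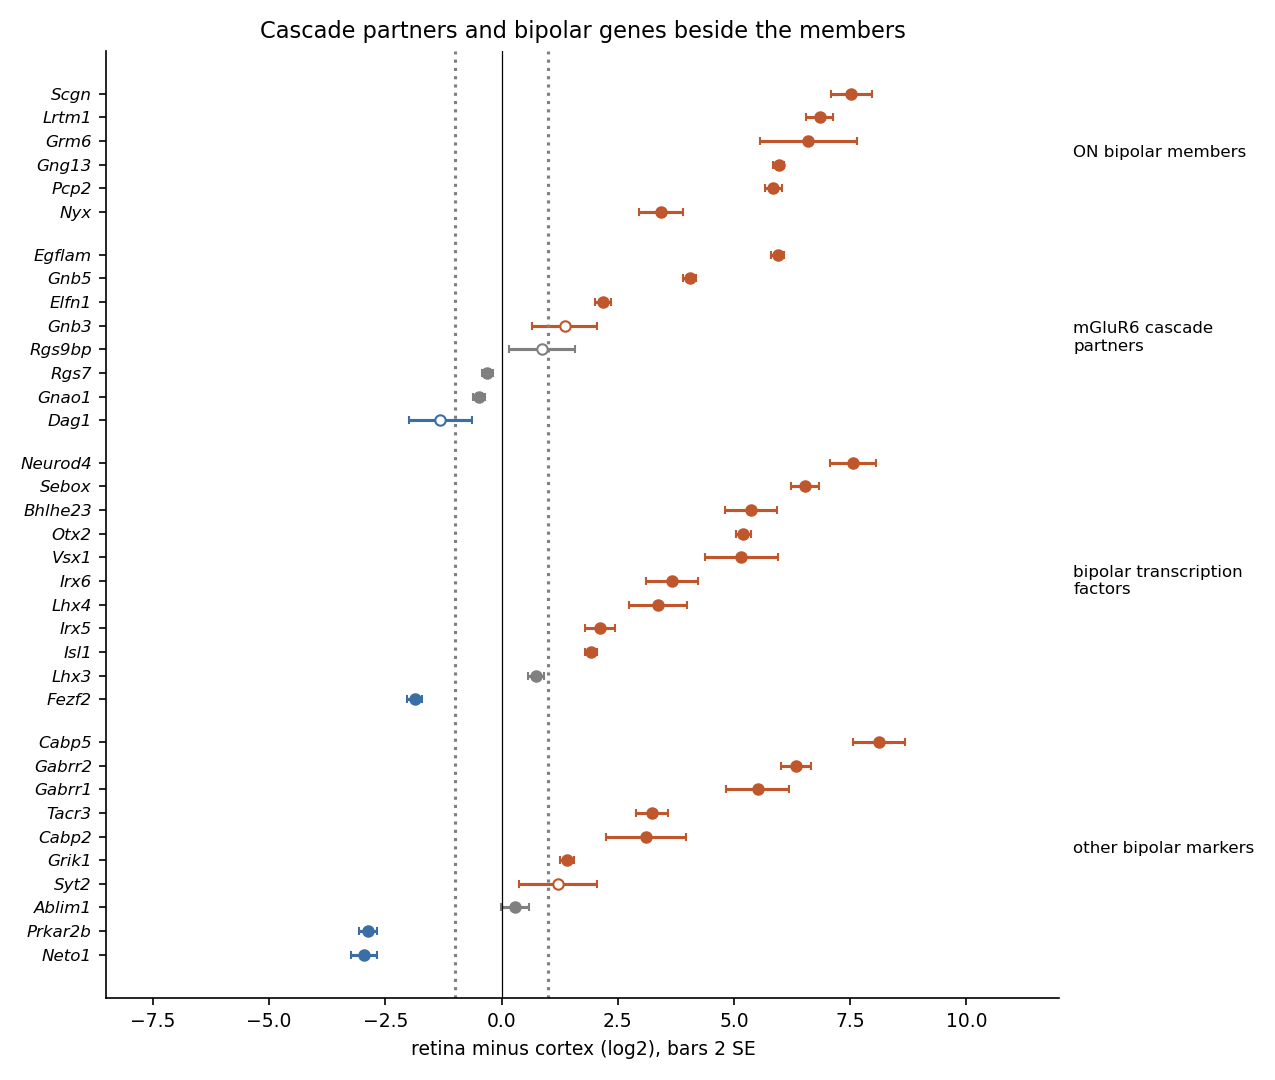
Retina minus cortex difference on the log2 scale (horizontal axis, bars of 2 SE) for the 6 measured members and for measured genes of 3 further lists, coloured orange where called higher, blue where called lower and grey where not called. Open points are genes below 10.87 in both tissues, and dotted lines mark the 2-fold minimum. The members lie between 3.43 and 7.52, whereas the cascade partners spread from -1.32 (Dag1) to 5.94 (Egflam).

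Relatives of Gng13 moved both ways. Of 11 other G protein gamma genes, all measured, 2 came out higher in retina and 6 lower, and 3 missed the call, for a median difference of -1.25. The higher ones were the photoreceptor subunits, Gngt1 of rods (11.19, SE 0.23, raised 10.18) and Gngt2 of cones (5.88, SE 0.28, raised 3.29). The neuronal gamma gene Gng2 was lower by the most, averaging 14.89 ± 0.13 in retina against 17.97 ± 0.05 (SD, n = 5 each), a difference of -3.08 (SE 0.059), and its other probe gave -3.13. Gng12, Gng10, Gng4, Gng3 and Gng7 were lower by limma too, with differences from -2.83 to -1.25. Gng11, Gng5 and Gng8 were at 0.98, 0.10 and -0.13, and Gng11 was called higher with median scaling (1.10) or without cortex array 1 (1.01) or retina array 3 (1.02).

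Of the other metabotropic glutamate receptor genes, Grm3, a receptor of brain neurons and astrocytes, was the 1 of 7 that was measured, and it went the other way from Grm6. It averaged 9.42 ± 0.90 on retina arrays and 14.55 ± 0.07 on cortex arrays (SD, n = 5 each), a difference of -5.13 (SE 0.30, limma adjusted p = 1.69e-10, raised -3.68). Relatives of the leucine-rich repeat members Nyx and Lrtm1 were mixed. Of 6 listed, 5 were measured, of which 3 came out higher in retina and 1 lower. Lrit1, a leucine-rich repeat gene of photoreceptors, was higher by 7.95 (SE 0.14, raised 4.40), its relative Lrit2 by 6.97 (SE 0.25, raised 4.93), and Lrtm2, the closest relative of Lrtm1 by name, by 1.26 (SE 0.15). Lrtm2 was not called without normalization (0.76) or with values raised to the dim level (0.59). Lrrtm1, a synaptic adhesion gene, was lower (-1.97, SE 0.37), and Lrrc4 was at -0.16.

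Gpsm2, which like Pcp2 encodes a GoLoco protein, was higher by 4.93 (SE 0.045), averaging 16.88 ± 0.03 in retina against 11.95 ± 0.05 (SD, n = 5 each), and Gpsm1 of the same family was at -0.23. The calcium-binding relatives of Scgn, Calb2 (calretinin) and Calb1 (calbindin), were higher by 2.97 and 1.58. Pcp4, which resembles Pcp2 in name, was higher by 1.69. The R7 family of RGS genes, to which Rgs11 belongs, held no gene called higher. Rgs9 was lower (-2.33, SE 0.086) and Rgs7 was at -0.31. Of the probes of Rgs6, the brighter was at -0.91 and not called. The other was called lower (-1.64, SE 0.53), but its means were dim in both tissues and its arrays overlapped. Without normalization (-1.35) or retina array 5 (-1.01), the brighter Rgs6 probe was called lower as well.

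**Figure D5:**
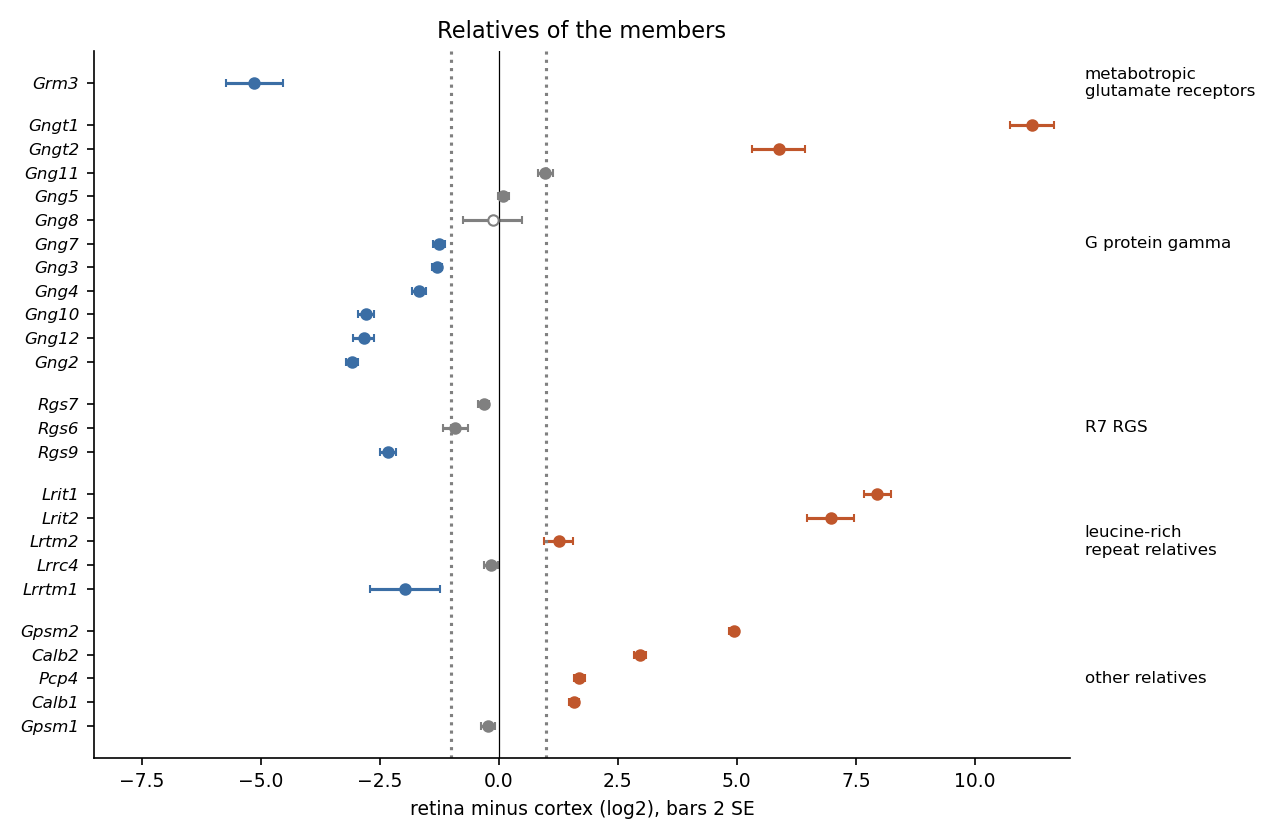
Retina minus cortex difference on the log2 scale (horizontal axis, bars of 2 SE) for relatives of the members, in 5 groups, the last of them mixed. Points are coloured as called higher (orange), called lower (blue) or not called (grey). Dotted lines mark the 2-fold minimum, and an open point marks Gng8, dim in both tissues. In the G protein gamma family, Gngt1 (11.19) and Gngt2 (5.88) stand apart from the 6 genes that were lower.

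Markers of other retinal cells moved with the members. Photoreceptor markers were higher in 8 of 8 measured genes (median 9.66), amacrine and horizontal markers in 8 of 9 (1.48), ganglion cell markers in 4 of 6 (3.35) and Müller glia markers in 4 of 6 (2.80), with none lower. With values raised to the dim level, those medians were 7.76, 1.40, 2.04 and 2.80. Without normalization, 5 of the 9 amacrine and horizontal markers were higher and the glial and radial glia gene Slc1a3 was called lower (-1.23). The normalized intensities of each list were also summed per array, a sum in which the brightest probes weigh most. On log2, the sums for photoreceptor markers ran from 22.11 to 22.32 on the retina arrays and 12.32 to 12.71 on the cortex arrays. They were 19.44 to 19.57 and 17.71 to 17.85 for amacrine and horizontal markers. For ganglion cell markers they were 16.89 to 17.03 and 14.81 to 14.88, and for Müller glia markers 20.87 to 20.95 and 18.88 to 19.05. Markers of pigment cells, which share Trpm1 with ON bipolar cells, were higher in 4 of 9 and not called in 5. Their sums ran from 15.55 to 15.81 in retina and 11.75 to 12.52 in cortex. Rpe65 was higher by 6.81 (SE 0.18, raised 3.70), Dct by 5.21 (SE 0.37, raised 3.31) and Tyrp1 by 4.23 (SE 0.22, raised 1.54). Tyr, the defining enzyme gene of melanin synthesis, was dim in both tissues (8.49 in retina), as were 5 others of that list. Among them, Pmel was called at 2.14, but was at 0.01 with values raised to the dim level. Oca2, dim in both tissues as well, was called lower without normalization (-1.14). Cortical neuron markers were lower in 5 of 6 measured genes (median -3.91), and none was higher. Their sums ran from 14.37 to 14.53 in retina and 18.99 to 19.05 in cortex. The part of these cells in the members' differences was not tested.

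Before normalization, the median intensity was 836 to 987 on the retina arrays and 1255 to 1341 on the cortex arrays, so the scaling bears on every difference. Without normalization, the median of all probes shifted to -0.41, and the members' differences were 7.07 for Scgn, 6.36 for Lrtm1, 6.23 for Grm6, 5.51 for Gng13, 5.35 for Pcp2 and 2.99 for Nyx. All 6 were called on that scale as well. Raw mean intensities of Pcp2 were 295000 in retina and 7110 in cortex, and those of Nyx 3620 and 475.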

How the data were processed

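The deposited table holds 1 linear intensity per probe and array, made by the authors; the scanner software, background correction and normalization are not given in the sources used here. Per the labels, total RNA was extracted with TRIzol and 1 µg was transcribed into digoxigenin-labelled cRNA. Groups and replicate numbers came from the sample titles. What P1 stands for in the titles of the retina arrays is not explained.

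Array medians spanned 0.682 log2 units, above a tolerance of 0.1, so log2 values were quantile-normalized. The tissues were compared by limma 3.58.1 under R 4.3.3 (lmFit, then trended eBayes), 2-sided and without covariates, and p-values were Benjamini-Hochberg adjusted over 33012 probes. Names came from the platform annotation (247 had several symbols, 18354 were not listed), and in lists the brightest probe stood for a gene. Some genes were in several lists, among them Fezf2, Gad1, Calb1, Calb2 and Rgs7, so the list counts are not independent. All members and, per list, the called and uncalled genes could be named (in lists over 8 genes, mainly the 4 largest differences, and any called against the majority; others are examples chosen after their values were seen). Members, lists and tests were chosen with earlier results of these data known. Promoter windows were searched with Python 3.11.15. On simulated data of the same size for this comparison, 100 of 100 probes changed by 4 log2 units and 81 of 100 changed by 2 were recovered. The number of arrays limits the precision. Alternatives were no normalization, median scaling, an offset of 64, a floor at the dim level, a filter on dim probes, other eBayes settings, a replicate block, each array left out, no fold minimum and, for lists, the mean of all probes of a gene.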

Additional observations from a re-analysis of the deposited data

Results flagged for a closer look

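The Grm6 value on cortex array 3, 11.57, lay far from the other 4 cortex arrays, at 7.70 to 8.33. It was the 1 of 12 groups of 5 arrays of the members that stood out by Dixon's test, which marks about 5% of groups by chance. Over all 33012 probes, cortex array 3 was the high outlier of its group in 250 and cortex array 4 in 336, so array 3 was not the array most often marked.

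Among the members and the listed genes, 12 of 228 groups were marked (5.26%), close to the share chance gives. On cortex arrays, Otx2 was at 12.65 on array 3 (others 13.09 to 13.17), Neurod4 at 7.51 on array 5 (others 8.88 to 9.42), Cabp2 at 11.45 on array 5 (others 8.41 to 8.90), Trpm2 at 12.90 and Lrrc4 at 12.47 on array 1, Prkcq at 11.06 on array 4 and Gng8 at 9.56 on array 5. On retina array 3, Egflam was at 17.48, Prkar2b at 11.55, Gnat2 at 17.23 and Grm3 at 7.85 (others 9.49 or higher).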

How the results depend on the processing

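All 6 members kept their direction and their call in each of the 19 alternatives tried for them (114 of 114 differences). Their differences on leaving out single arrays ran from 6.34 to 7.31 for Grm6, 7.26 to 7.65 for Scgn, 6.73 to 7.03 for Lrtm1, 5.93 to 6.01 for Gng13, 5.79 to 5.93 for Pcp2 and 3.27 to 3.55 for Nyx. Of 77 called list genes, 65 kept their call in all alternatives that gave them a value, and none changed sign with another scaling or the offset. Counts over all probes moved by more than 1.5 times: from 3987 higher and 4392 lower to 2474 and 7621 without normalization, to 2358 and 2515 with the floor at the dim level, and to 7441 and 8263 with no fold minimum. Without normalization the whole distribution shifts toward cortex, and without a fold minimum more probes pass by construction. The replicate numbers did not pair the arrays: same-numbered arrays correlated between -0.02 and 0.03 in their deviations, and the fit with the replicate block called 4000 probes higher and 4398 lower and all 6 members. Dim cortex signal limits the size of the differences of Grm6, Nyx, Scgn and Lrtm1.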

Other observations

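Relatives of Trpm1 and Prkca, which were not analysed, were called in 1 of 6 measured TRPM channel genes and 1 of 5 measured protein kinase C genes, both lower in retina, where 13.3% of all probes were lower, so the counts say nothing about these families. Of 7 other TRPM channel genes, 6 were measured, and Trpm4 was called (-1.07, SE 0.16, limma adjusted p = 2.25e-05), although not with values raised to the dim level (-0.37). Trpm2 and Trpm7 were at 0.34 and 0.31 and turned sign without normalization (-0.05 and -0.08), and Trpm5, Trpm6 and Trpm8 were dim in both tissues. Of 8 protein kinase C genes other than Prkca, 5 were measured. Prkce was lower (-1.09, SE 0.16), but not called with values raised to the dim level (-0.82) or without retina array 5 (-0.95). Prkcq, Prkci and Prkcb were at 0.46, 0.05 and -0.17, all under the 2-fold minimum. Prkch, dim in both tissues, was at -0.96. Without normalization or without retina array 1, Trpm5 (-1.33 and -1.09) and Prkch (-1.43 and -1.24) were called lower, and Prkch also without retina array 4 (-1.26). With values raised to the dim level, Trpm5 and Prkch were both at 0.00.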
